A study of Mus musculus with 18 samples.

Results

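The transcripts described here are those of Aplnr, which encodes the apelin receptor, and Apln, which encodes the peptide hormone apelin. They were measured in differentiating mouse embryonic stem cells with and without induction of the transcription factor Msgn1 (mesogenin 1, a basic helix-loop-helix factor of presomitic mesoderm). All probe sets annotated to exactly 1 gene symbol, Aplnr or Apln, were taken: 3 of the 45101 probe sets on the array, 2 for Aplnr and 1 for Apln, and so 2 of the 18193 genes so annotated. Aplnr was chosen because earlier results of these data showed its large difference at 24 h and its course in uninduced cultures, so its values are given as a description with no test. Apln was included by name as the gene of the ligand, and its differences were tested.

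All cultures, controls included, came from the A2lox ES cell line of strain 129P2 with an inducible Flag-tagged Msgn1 cassette, maintained on mitomycin-treated fibroblast feeders. Embryoid bodies (floating aggregates in which ES cells differentiate) formed for 2 days and were then moved to low-attachment dishes. Induced cultures received 1 µg/ml doxycycline on day 2, and uninduced cultures did not. Both were collected 12, 24 and 48 h later, which gave 6 groups of 3 arrays that the titles call biological replicates; no group received doxycycline without carrying the cassette. Signals are linear intensities scaled per array, and differences are on the log2(signal + 32) scale, where the added 32 damps the change of dim probe sets. Array medians lay between 18.8 and 22.1, so signals of that size are ordinary for the array. Msgn1 itself had a mean signal of 19.0 ± 5.45, 11.2 ± 5.60 and 6.14 ± 2.21 (SD, n = 3) in uninduced cultures at 12, 24 and 48 h. In induced cultures these were 70.6 ± 6.07, 59.0 ± 7.47 and 51.4 ± 6.18, and at each time every induced array lay above every uninduced one. In bulk RNA, more cells of a type and more RNA per cell cannot be told apart.

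The apelin receptor is a G protein-coupled receptor that signals through inhibitory G proteins and beta-arrestins. It has 2 peptide ligands, apelin and the early embryonic hormone Elabela (also called Toddler), the product of Apela. In vertebrate embryos the receptor is known from gastrulating mesoderm, where Elabela signalling guides mesendodermal cell movement, and later from heart precursors and growing vessels, where endothelial tip cells make apelin. Transcription of Apln is known to respond to low oxygen.

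Msgn1 belongs to a family of factors that bind E-boxes, with the general form CANNTG, and the core of the hypoxia response element is ACGTG. The promoter sequences used had no entry for Aplnr, so none is shown for the receptor. The 250 bases upstream of the annotated start of each ligand gene, from RefSeq on build GRCm38.p6, are shown with every CANNTG in capitals. They are Apln at chrX:48034854-48035103 and Apela at chr8:65037337-65037586, both on the minus strand and written 5′ to 3′.
Apln: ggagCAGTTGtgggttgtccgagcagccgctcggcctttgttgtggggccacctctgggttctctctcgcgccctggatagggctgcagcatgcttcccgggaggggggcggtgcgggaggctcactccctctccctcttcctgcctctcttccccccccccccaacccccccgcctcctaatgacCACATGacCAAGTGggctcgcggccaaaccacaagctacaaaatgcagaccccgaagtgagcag
Apela: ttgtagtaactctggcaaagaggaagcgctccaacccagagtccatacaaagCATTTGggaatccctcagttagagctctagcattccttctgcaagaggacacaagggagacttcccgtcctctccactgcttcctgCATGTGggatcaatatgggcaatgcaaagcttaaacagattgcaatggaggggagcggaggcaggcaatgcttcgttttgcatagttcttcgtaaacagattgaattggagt
The Apln window held 3 E-boxes and had a GC content of 65.2%. The Apela window held 2 at a GC content of 48%, the first of them with the letters CATTTG. At least 1 CANNTG lay in 66.2% of 32851 promoters of that length, with a median of 1, so its presence is common. That form, searched on both strands and included in CANNTG, lay in 12% of them, and ACGTG, in neither window on either strand, in 16.6%. These matches are letters in a window and were not tested as binding sites.

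Aplnr was low until 24 h in uninduced cultures and rose steeply by 48 h, and in induced cultures it was already high at 24 h. Its early uninduced signals lay above the array median on the brighter probe set, but not on every array for the dimmer one. On the probe set with the higher signal, which stands for the gene, the uninduced arrays at 12 h read 47.2, 91.4 and 59.0, and the induced arrays at 12 h read 75.7, 82.9 and 102. At 24 h the uninduced arrays read 64.1, 63.0 and 105, and the induced arrays read 475, 666 and 869. At 48 h the uninduced arrays read 1627, 2046 and 1398, and the induced arrays read 3837, 2723 and 3182. The induced and uninduced arrays overlapped at 12 h, whereas at 24 and 48 h every induced array was above every uninduced one. The lowest induced array at 24 h was over 4 times the highest uninduced array at that time.

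Group means of the Aplnr signal were 65.9 ± 22.9 (SD, n = 3) in uninduced and 87.0 ± 13.7 in induced cultures at 12 h. At 24 h they were 77.5 ± 24.2 and 670 ± 197, and at 48 h 1690 ± 329 and 3247 ± 559. The difference between induced and uninduced cultures was 0.30 on the log2 scale at 12 h, 2.66 at 24 h and 0.93 at 48 h, each with a standard error of 0.193. These correspond to 1.23, 6.33 and 1.91 times the signal plus 32. The gap was thus widest at 24 h: it exceeded the 12 h gap by 2.36 (standard error 0.273), and from 24 to 48 h it fell by 1.73 (standard error 0.273). By the size of the 24 h difference Aplnr ranked 1 of 14273 genes, and by that at 48 h it ranked 156; the ranks describe how the gene was chosen.

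**Figure D1:**
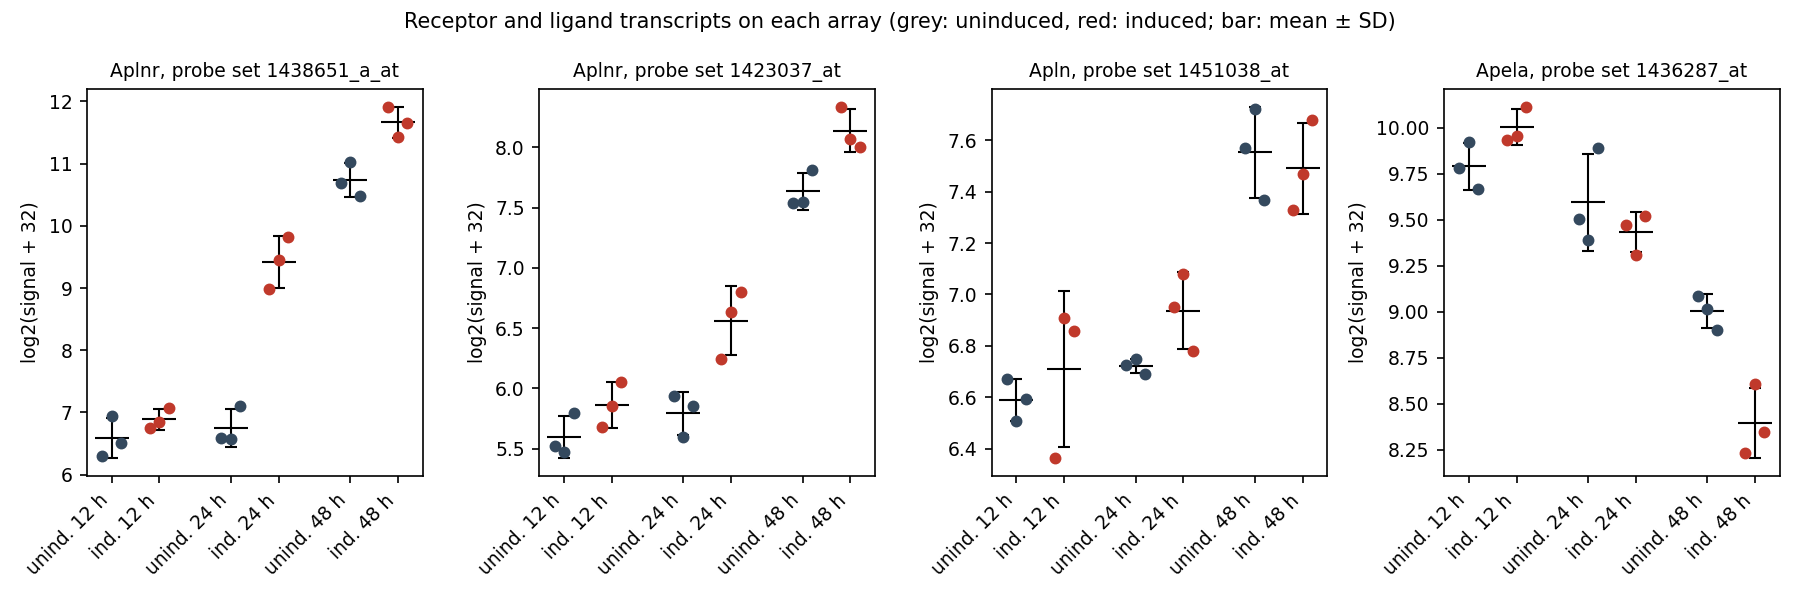
Each point is 1 array, the vertical axis is log2(signal + 32), and the horizontal axis gives the 6 groups (3 arrays each) by time after the addition of doxycycline; bars are group means ± SD. Both Aplnr probe sets climb in steps from induced 24 h to uninduced 48 h to induced 48 h, Apln rises between 24 and 48 h with and without induction, and Apela declines; the vertical axes differ between panels.

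The course without induction was late. Between 12 and 24 h the uninduced arrays of Aplnr overlapped and their means differed by 0.17 (log2), and without uninduced 24 h replicate 3 this difference was -0.01. Between 24 and 48 h the same cultures rose by 3.98 (15.8 times the signal plus 32), the largest rise of the 14273 genes in that interval. In induced cultures the rise was spread over both intervals, 2.53 from 12 to 24 h and 2.25 from 24 to 48 h. The comparisons at 24 h and the uninduced courses share the uninduced 24 h arrays, so these values are not independent of each other.

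Set against the uninduced 48 h level, the mean signal of Aplnr in induced cultures at 24 h was 39.6%, while that in uninduced cultures at 24 h was 4.58%. Induced cultures at 24 h had reached 20.6% of their own later level. The order of the 6 groups from low to high was uninduced 12 h, uninduced 24 h, induced 12 h, induced 24 h, uninduced 48 h and induced 48 h. The first 3 groups overlapped with their neighbours in that order, and each of the last 3 lay above every array of the group before it.

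The arrays of induced cultures at 24 h spread more than those of other groups on the log2 scale (SD 0.42, against 0.16 to 0.33 in the others). The replicate numbers in the titles gave differences between same-numbered arrays of 2.40, 2.88 and 2.71 at 24 h. At 48 h they were 1.22, 0.41 and 1.17, and at 12 h 0.44, -0.10 and 0.56. Whether the number links arrays beyond the title is not settled by the values. The smallest of the 3 differences at 24 h was above the largest at either other time.

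The second probe set of Aplnr was dimmer and showed the same order of groups with smaller differences. In uninduced cultures it read 13.8, 12.3 and 23.6 at 12 h, 29.2, 16.4 and 25.7 at 24 h, and 154, 156 and 192 at 48 h. In induced cultures it read 19.1, 25.9 and 34.5 at 12 h, 43.9, 67.4 and 79.7 at 24 h, and 292, 237 and 224 at 48 h. The induced arrays again overlapped the uninduced arrays at 12 h and lay above them all at 24 and 48 h. Its differences were 0.27, 0.77 and 0.50 at 12, 24 and 48 h (standard error 0.147), so the gap was again widest at 24 h. Its rise in uninduced cultures from 24 to 48 h was 1.84. Across the 18 arrays the 2 probe sets had a Pearson correlation of 0.971, a description over arrays that share their groups. When a gene's kept probe sets were averaged, the 24 h difference of Aplnr was 1.72 in place of 2.66, its excess over the 12 h difference was 1.43, and from 24 to 48 h that difference changed by -0.999. The direction was the same on both probe sets, and the size depends on which is read.

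Apln was low until 24 h and then rose in uninduced and induced cultures alike, with no called difference between them. Its uninduced arrays read 69.9, 58.9 and 64.5 at 12 h, 73.8, 75.5 and 71.3 at 24 h, and 158, 179 and 133 at 48 h. Its induced arrays read 50.2, 88.3 and 84.0 at 12 h, 91.7, 103 and 78.0 at 24 h, and 129, 145 and 173 at 48 h. All arrays at 48 h were above all arrays at earlier times, and at 48 h the induced and uninduced arrays overlapped.

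From 24 to 48 h Apln rose by 0.83 ± 0.132 (log2, standard error; limma, adjusted p = 6.51e-05) in uninduced cultures, where 24.6% of all genes tested were called in either direction. In induced cultures it rose by 0.55 ± 0.132 (limma, adjusted p = 0.00318), where 25.9% of genes were called. The induction difference was 0.12 at 12 h (limma, adjusted p = 0.814), 0.22 at 24 h (limma, adjusted p = 0.481) and -0.06 at 48 h (limma, adjusted p = 0.840). At 24 h the 3 induced arrays of Apln lay above the 3 uninduced ones, but the difference did not pass the test. From 12 to 24 h the changes of 0.13 in uninduced and 0.23 in induced cultures also missed the threshold (limma, adjusted p = 0.654 and 0.276). The change of the induction difference was 0.10 between 12 and 24 h (limma, adjusted p = 0.953; 0.105% of genes called) and -0.28 between 24 and 48 h (limma, adjusted p = 0.569; 3.11% called). A p that misses the threshold does not show that the groups were alike, and the standard error of 0.132 gives the precision.

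Apela, the gene of the other ligand, moved the opposite way to its receptor over time. On its brighter probe set the uninduced means were 856 ± 78.2, 750 ± 148 and 481 ± 32.7 (SD, n = 3) at 12, 24 and 48 h. The induced means were 995 ± 71.1, 661 ± 52.5 and 307 ± 46.2. At 48 h the 3 induced arrays (269, 358 and 293) were below the 3 uninduced arrays (512, 485 and 447), a difference of -0.61 ± 0.113 (limma, adjusted p = 6.47e-04). Of all genes, 12.4% were called at 48 h in either direction.

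At 24 h, where Aplnr differed most, the Apela arrays overlapped (-0.16, limma, adjusted p = 0.556), and at 12 h the difference was 0.21 (limma, adjusted p = 0.514). From 24 to 48 h Apela fell by 0.59 in uninduced (limma, adjusted p = 4.69e-04) and by 1.04 in induced cultures (limma, adjusted p = 4.01e-07). It also fell by 0.57 from 12 to 24 h in induced cultures (limma, adjusted p = 0.00180), where 13.9% of genes were called in either direction and 5.35% lower. The second Apela probe set was dimmer and had the same directions, and of these differences only the induced fall from 24 to 48 h was called on it (-0.40, limma, adjusted p = 0.0308). Across the 18 arrays Aplnr had a Pearson correlation of 0.886 with Apln and of -0.884 with Apela, which describes arrays that share 6 groups and a common time course.

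**Figure D2:**
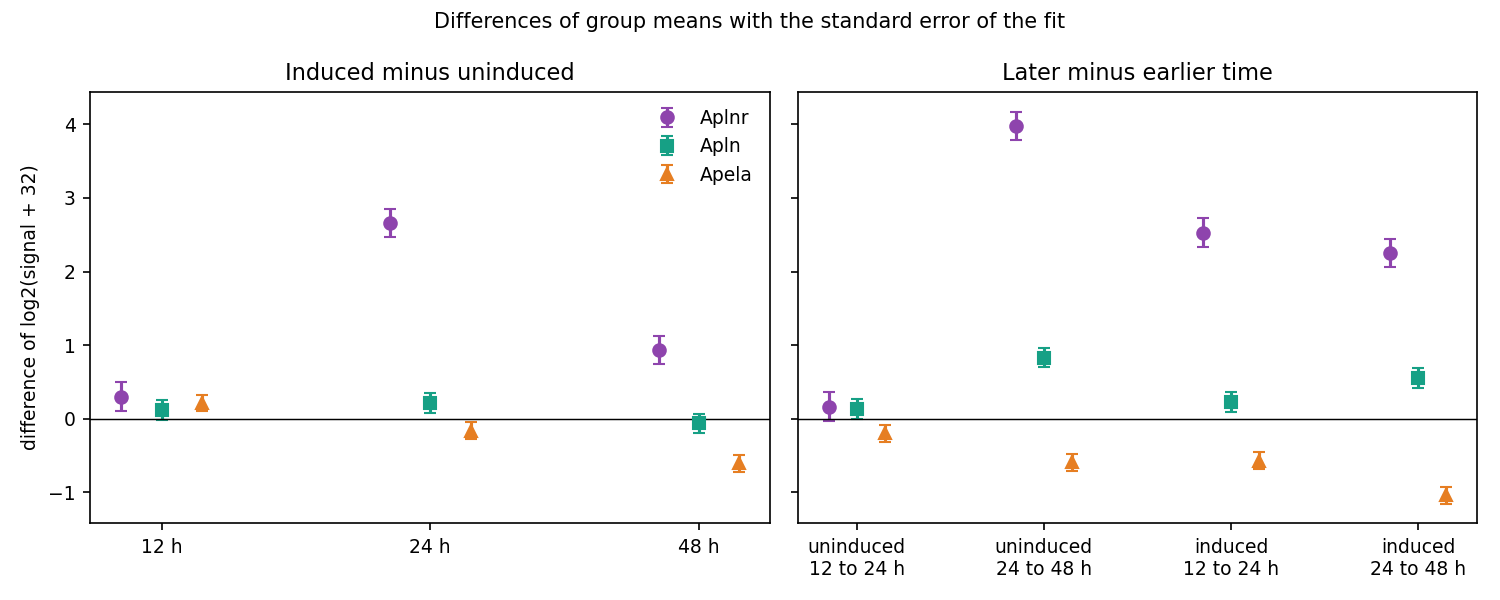
Points are differences of group means on the log2(signal + 32) scale with the standard error of the fit over 18 arrays, for induced minus uninduced cultures (left) and for later minus earlier times (right). The Aplnr difference is 0.30, 2.66 and 0.93 at 12, 24 and 48 h, while the Apln difference stays between -0.06 and 0.22.

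Enzymes that cut or degrade the peptides were taken next, 11 genes of which 7 were measured (Furin, Pcsk5, Pcsk6, Pcsk7, Ace, Mme and Prcp). Of these, 1 was called higher in induced cultures at 24 h (all genes: 2.91% called higher) and 1 at 48 h (6.86%), both times Pcsk5, a proprotein convertase. Its signal was 5.77 ± 6.42 in uninduced and 22.9 ± 4.76 in induced cultures at 24 h, and 14.4 ± 4.70 and 174 ± 19.0 at 48 h. The 48 h difference was 2.15 ± 0.154 (limma, adjusted p = 1.90e-09), held on both of its probe sets that passed the filter on dim signals, of 5 in all, and exceeded that at 24 h by 1.60 (limma, adjusted p = 1.23e-04). The 24 h difference of 0.55 ± 0.154 was close to the threshold (limma, adjusted p = 0.0482); it was lost in 14 of 18 fits that left out 1 array (adjusted p up to 0.185, without induced 24 h replicate 2) and after quantile normalization (0.0590). When probe sets were tested one by one it was called on neither of the 2 kept. Pcsk5 therefore differed most at 48 h, where Aplnr had passed its widest difference.

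Furin, the convertase known to process both apelin and Elabela precursors, rose by 0.39 from 24 to 48 h in uninduced cultures (limma, adjusted p = 0.0470; 12.8% of all genes called higher). That call was lost in 8 of 18 fits without 1 array (adjusted p up to 0.213, without uninduced 24 h replicate 2) and after quantile normalization (0.0990). Furin also rose by 0.42 in induced cultures (limma, adjusted p = 0.0316, lost without any of 4 arrays, up to 0.147 without induced 48 h replicate 1, and 0.0628 after quantile normalization). Pcsk6 fell by 0.38 in uninduced cultures over the same interval (limma, adjusted p = 0.0381; 11.7% of all genes called lower), a call lost without any of 5 of the 6 arrays compared (up to 0.226, without uninduced 24 h replicate 2), and by 0.67 in induced cultures (limma, adjusted p = 4.87e-04). Mme encodes neprilysin, a peptidase that inactivates apelin. From 12 to 24 h it fell by 0.52 in uninduced cultures (limma, adjusted p = 0.0124, with 1.82% of all genes called lower). That call was lost without uninduced 24 h replicate 2 (limma, adjusted p = 0.0801) or uninduced 12 h replicate 1. In induced cultures Mme fell by 0.65 over that interval (limma, adjusted p = 5.78e-04). Each of these falls was called on 1 of the 2 kept probe sets of Mme. No measured enzyme was called between induced and uninduced cultures at 12 h (limma, 0 of 7, with 0 at an unadjusted p under 0.05; 1.08% of all genes called).

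The transducers of the receptor were 18 listed genes, 17 of them measured: G protein subunits, arrestins, receptor kinases and RGS proteins. At 12 and 24 h none of the 17 was called between induced and uninduced cultures by limma, with 1 and 2 at an unadjusted p under 0.05, against 1.08% and 3.91% of all genes called. This holds for the probe set that stood for each gene. Tested one by one, 1 of 4 kept probe sets of Gng2 was called higher at 12 h and 1 at 24 h. For Gnaq 1 of 6 was called higher at 24 h. At 48 h 3 were higher and 0 lower (6.86% and 5.56% of all genes), and 14 did not pass. Rgs5, an RGS protein of pericytes and vascular wall cells that speeds the shut-off of G protein signals, had a signal of 37.9 ± 11.3 in uninduced and 147 ± 44.9 in induced cultures at 48 h. Its difference was 1.34 ± 0.151 (limma, adjusted p = 1.44e-06), and it exceeded that at 24 h by 1.04 (limma, adjusted p = 0.00665). Gng2, a G protein gamma subunit, differed by 0.44 (limma, adjusted p = 2.26e-04), a difference called on 2 of its 4 kept probe sets. Rgs3 differed by 0.39 (limma, adjusted p = 0.0280, lost without any of 5 of the 6 arrays compared, up to 0.191 without induced 48 h replicate 1).

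Over time in uninduced cultures 1 of the 17 transducers rose from 12 to 24 h and 0 fell, and from 24 to 48 h 6 rose and 3 fell, with a median difference of 0.18 against -0.01 over all genes (12.8% of all genes called higher and 11.7% lower, so the falls are near that share). The earlier change was of Arrb1, which encodes beta-arrestin 1, an adaptor that uncouples and internalizes receptors. Its signal went from 104 ± 18.9 to 187 ± 2.02, a rise of 0.70 (limma, adjusted p = 4.73e-04, 2.2% of all genes called higher). From 12 to 24 h in induced cultures Arrb1 rose by 0.94 (limma, adjusted p = 2.15e-06, 13.9% of all genes called in either direction). From 24 to 48 h in uninduced cultures it rose by a further 0.43 (limma, adjusted p = 0.00265). Aplnr rose in the induced 12 to 24 h and the uninduced 24 to 48 h interval as well. From 12 to 24 h in uninduced cultures it differed by only 0.17, with overlapping arrays. From 24 to 48 h in induced cultures Aplnr rose by 2.25, while the Arrb1 signal went from 229 ± 21.5 to 211 ± 12.7. The later risers included Gnai1 (0.46, limma, adjusted p = 0.00203) and Gnai2 (0.44, limma, adjusted p = 1.49e-05), which encode inhibitory G protein alpha subunits that the receptor uses. Gnaq, an alpha subunit of the phospholipase C route, rose by 0.39 (limma, adjusted p = 0.00265). In induced cultures 7 transducers rose and 2 fell from 24 to 48 h, against 13% and 12.9% of all genes. Among those that fell was Rgs2 (-0.48, limma, adjusted p = 0.00333). Of the G protein subunits, Gnai1, Gnai2, Gnaq and Gnb1 thus rose without induction over the interval in which the receptor did. Tested one by one, these rises were called on 3 of 3, 2 of 2, 3 of 6 and 1 of 2 kept probe sets. Gng2 fell by 0.36 (limma, adjusted p = 8.98e-04), a fall called on 1 of its 4 kept probe sets. On the probe sets that stood for them, none of these 4 risers was called between induced and uninduced cultures at 12, 24 or 48 h. Tested one by one, 1 of 2 kept probe sets of Gnai2 was called lower in induced cultures at 48 h. For Gnaq 1 of 6 was called higher at 24 h.

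Of 16 related peptide, chemokine and lipid receptors, 11 were measured. At 12 h 1 was higher in induced cultures (all genes: 0.897% called higher), at 24 h 2 (2.91%) and at 48 h 4 (6.86%), and 0 were lower at each time (all genes called lower: 0.182%, 0.995% and 5.56%). F2r, the thrombin receptor, was higher at all 3 times, by 0.73, 0.80 and 0.60 (limma, adjusted p = 3.56e-06, 5.71e-07 and 7.60e-06). Cxcr4, the receptor of a chemokine that steers migrating mesendoderm, was higher at 24 and 48 h. Its signal was 24.2 ± 7.59 in uninduced and 97.7 ± 23.0 in induced cultures at 24 h, and 132 ± 21.2 and 410 ± 15.7 at 48 h.

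The Cxcr4 difference was 1.20 at 24 h (limma, adjusted p = 1.84e-06) and 1.44 at 48 h (limma, adjusted p = 3.15e-08), and its uninduced rise from 24 to 48 h was 1.55 (limma, adjusted p = 7.03e-09). The change of its difference from 24 to 48 h was 0.24 (limma, adjusted p = 0.626). Ackr3, a scavenging receptor of the same chemokine, and S1pr3, a sphingosine-1-phosphate receptor, were higher at 48 h, by 1.39 (limma, adjusted p = 6.44e-05) and 0.48 (limma, adjusted p = 0.00213). The angiotensin receptor Agtr1a, a close relative of the apelin receptor in sequence, stayed dim, with means between 22.6 and 44.7 in the 6 groups, and was called in none of these comparisons. S1pr2 fell by 0.30 from 24 to 48 h in uninduced cultures (limma, adjusted p = 0.0237). It also fell by 0.37 from 12 to 24 h in induced cultures (limma, adjusted p = 0.0129). Of all genes 11.7% and 5.35% were called lower there. These calls were lost in 4 and 2 of the 18 fits without 1 array.

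**Figure D3:**
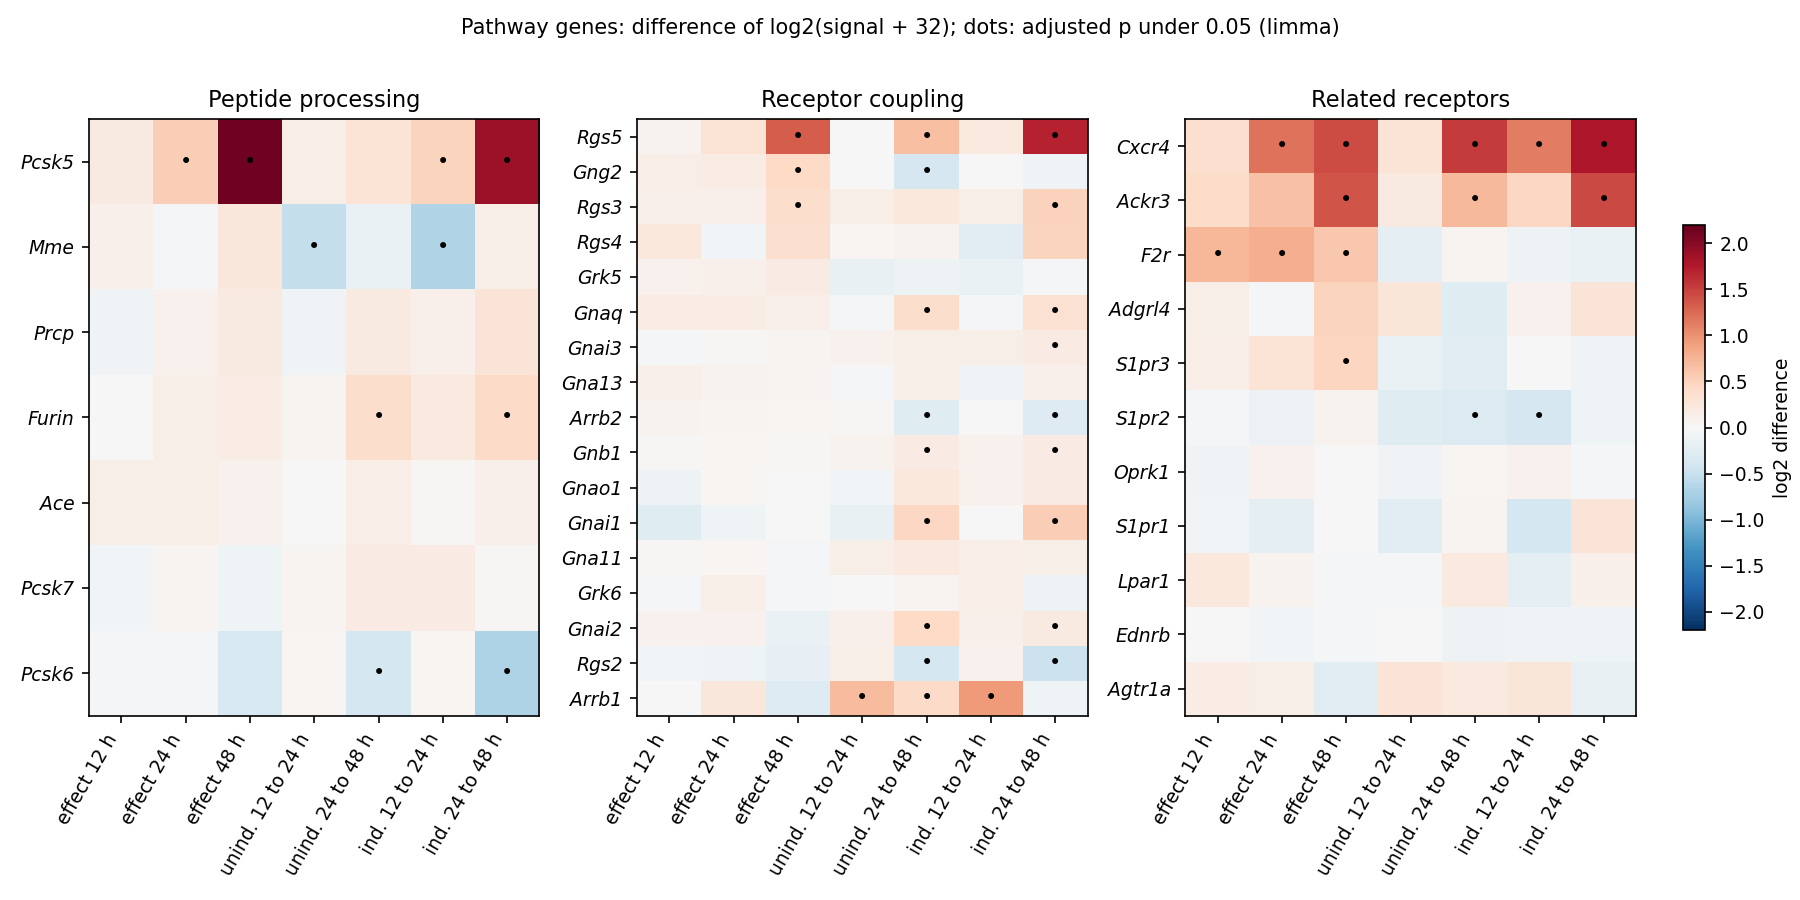
Rows are the measured genes of 3 lists, columns are the comparisons (effect: induced minus uninduced; the others later minus earlier), and colour is the difference of log2(signal + 32) (blue lower, red higher), with dots where limma's adjusted p was under 0.05. Few cells are dotted in the 12 and 24 h effect columns, and Pcsk5 has the darkest cell, 2.15 at 48 h.

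Marker lists place these values among the cell types that such cultures can hold. Of 16 early mesoderm markers, 11 were higher in induced cultures at 24 h and 0 lower (median 0.67 against 0.01 over all genes; 2.91% of all genes called higher). At 48 h 10 were higher and 1 lower (6.86% and 5.56% of all genes), and their median difference was again 0.67. The change of the difference from 24 to 48 h was called higher for 1 of the 16 and lower for 3. Its median was -0.10, and 3.11% of all genes were called in either direction. Lhx1 was 1 of the 3, with 1.46 at 24 h and 0.05 at 48 h. The difference of Aplnr, not tested, was 0.93 after 2.66. From 24 to 48 h in uninduced cultures 14 of the 16 markers rose and 1 fell (12.8% and 11.7% of all genes). Their summed signal was 3096 to 3942 in uninduced and 5218 to 6427 in induced cultures at 24 h, and 8950 to 10970 in uninduced cultures at 48 h. Other lists moved too, against the same shares of all genes. In induced cultures 9 of 18 measured presomitic markers were higher and 2 lower at 24 h, and 12 and 1 at 48 h. Of 16 lateral and cardiac mesoderm markers 4 were higher at 24 h and 14 at 48 h, with 0 lower. Of 10 definitive endoderm markers 2 were higher at 24 h and 1 at 48 h, with 0 and 5 lower. From 24 to 48 h without induction 8, 5 and 7 members of these lists rose and 2, 0 and 0 fell. The part of these cell types in the Aplnr values was not tested. Of 20 endothelial and blood precursor markers, 2 rose and 4 fell from 24 to 48 h in uninduced cultures, near the 12.8% and 11.7% of all genes, and 1 of the 20 read under the filter signal of 13.3 on all uninduced arrays. Their summed signal went from 1069 to 1261 at 24 h to 1164 to 1456 at 48 h. The part of such cells in the Aplnr values was not tested. In induced cultures 8 of the 20 were higher at 24 h and 14 at 48 h (2.91% and 6.86% of all genes), with sums of 1756 to 2119 and 2881 to 3267.

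The summed signal of fibroblast feeder markers was lower at 48 than at 24 h in uninduced cultures. Of 16 measured, 1 rose and 3 fell from 24 to 48 h, near the shares of all genes (12.8% and 11.7%), with sums of 1702 to 1933 and then 1588 to 1651, and none was at 0. In induced cultures their sums were higher, 2218 to 2390 at 24 h and 2488 to 2775 at 48 h, where 3 and 8 of 16 were called higher (2.91% and 6.86% of all genes). The part of feeder cells in the Aplnr values was not tested. Of 9 measured markers of tip cells, which make apelin in growing vessels, 1 rose and 1 fell from 24 to 48 h in uninduced cultures, which is near the 12.8% and 11.7% of all genes. Of 16 genes that respond to low oxygen, 10 rose and 0 fell in that interval (median 0.58; 12.8% and 11.7% of all genes), with sums of 28996 to 36915 at 24 h and 40621 to 42098 at 48 h. In induced cultures 6 rose and 1 fell (13% and 12.9% of all genes). At 24 h none of the 16 was called between induced and uninduced cultures (limma; 4 at an unadjusted p under 0.05; 3.91% of all genes called). The part of the oxygen response in the Apln rise was not tested.

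By Pearson correlation of log2(signal + 32) over the 18 arrays, the 10 named genes most like Aplnr were Cyp26a1 (0.989), Zfp362 (0.985), Usp47 (0.976), Lhx1 (0.976), Grcc10 (0.975), Amot (0.974), Tmx1 (0.973), Rspo3 (0.973), Tspan6 (0.972) and Nrarp (0.972). They were picked as the highest of 13430 ranked genes, 393 of which exceeded 0.9, with a median of 0.03. Their high values thus follow from the choice. Only 1 of the 10 was also in the top 10 by correlation of the 6 group means, 0 were by Spearman correlation, and 6 were in its top 100. Cyp26a1, which encodes an enzyme that degrades retinoic acid, had signals of 96.0 ± 20.2 in uninduced and 388 ± 72.2 in induced cultures at 24 h. At 48 h they were 1021 ± 105 and 1804 ± 24.8. Its differences of 0.54, 1.71 and 0.81 at 12, 24 and 48 h were, like those of Aplnr, widest at 24 h. Lhx1, a homeodomain factor of early mesendoderm, had differences of 0.51, 1.46 and 0.05. Rspo3, a secreted enhancer of Wnt signalling, had 0.13, 0.86 and 0.98, with no narrowing at 48 h. For genes picked by their likeness these values are a description.

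**Figure D4:**
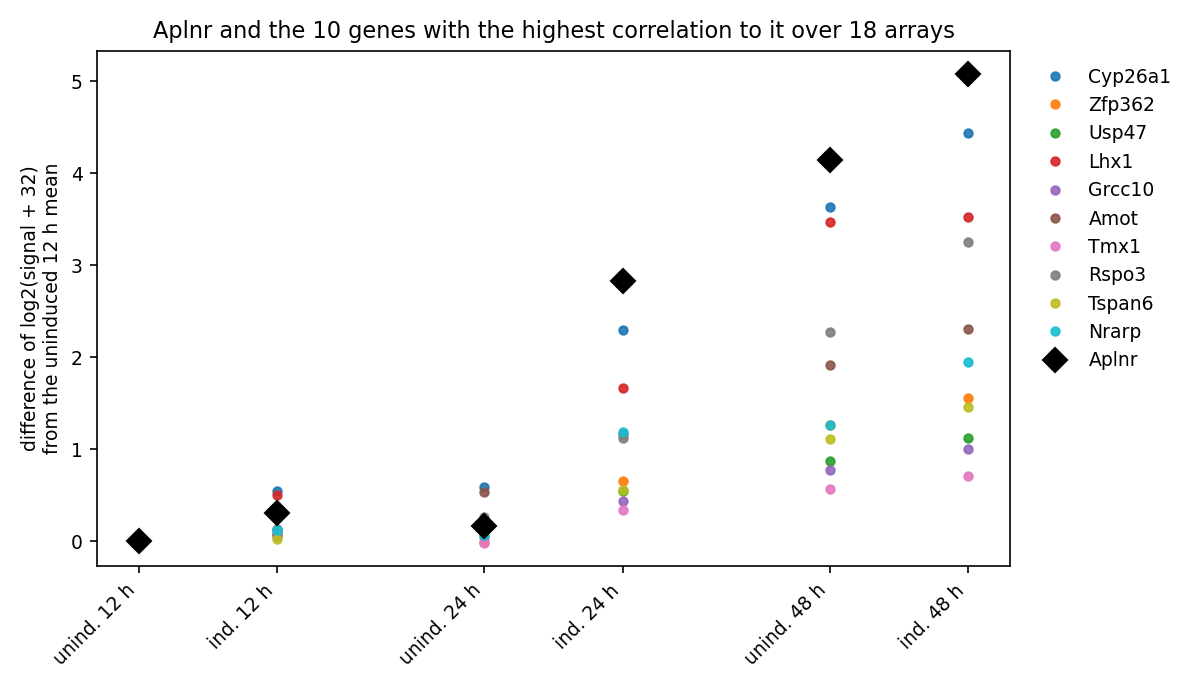
The vertical axis is the difference of each group's mean log2(signal + 32) from the uninduced 12 h mean, for Aplnr (diamonds) and the 10 genes most correlated with it (circles), over the 6 groups of 3 arrays. The genes share the order of the later groups but not the size, and Aplnr lies above all 10 in induced cultures at 24 h and in both groups at 48 h.

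For Apln the most similar genes were Dock1 (0.963), Tcf7l2 (0.957), Dclk1 (0.942), Agpat3 (0.941), Pcmtd2 (0.935), Gas1 (0.935), Norad (0.934), Cnot6l (0.932), Rgs17 (0.931) and Rtl8c (0.927). None of them was among the 10 for Aplnr. Dock1, a Rac activator in cell migration, had signals of 286 ± 12.1 in uninduced cultures at 24 h and 477 ± 34.7 at 48 h. Its induced means were 340 ± 33.9 and 497 ± 20.9 at these times, log2 differences of 0.22 and 0.06, where those of Apln were 0.22 and -0.06.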

How the data were processed

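The deposited intensity values, 1 linear signal per probe set and array, were used as given. The submitters' processing notes name GCOS. How signals were computed, and the genome build, is not given in the sources used. The deposited intensities had a 2% trimmed mean of 150 on all 18 arrays. Per the labels, 100 ng of RNA was labelled with a 3' in vitro transcription kit. Values were taken as log2(signal + 32). Probe sets stayed in where the mean of 1 group or more was at or above the 40th percentile of all values (signal 13.3). The kept probe set with 1 gene symbol and the highest mean stood for its gene (14273 genes). Limma 3.58.1 in R 4.3.3 fitted 1 mean per group (12 residual degrees of freedom, intensity trend) with 2-sided p-values adjusted by Benjamini-Hochberg over all genes, called under 0.05. It was tested on simulated data. P-values measure the spread between these arrays, whose separate origin rests on the word biological in the titles.

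The members and lists were chosen with earlier results of these data known. Named were Aplnr, Apln, Apela, Msgn1 and up to 4 called genes per pathway list and comparison. The 10 genes most correlated with Aplnr and with Apln were named too, passing over clone names and predicted genes. Members of the cell type and oxygen lists reported are given as counts, in part with sums. Lists of extraembryonic endoderm, pluripotency and neural markers were also counted and are not reported here. Same-numbered arrays deviated together at 24 h (correlations 0.197, 0.137 and 0.442), not at 12 h (0.01, 0.07 and -0.07) or 48 h (-0.13, -0.07 and 0.08). At 24 h some differently numbered arrays did too (uninduced 2 with induced 1, 0.203, and uninduced 1 with induced 2, 0.115). Pairs of a replicate 3 with a replicate 1 or 2 were negative at 24 h. Uninduced 1 and 2 with induced 3 gave -0.261 and -0.284, and uninduced 3 with induced 1 and 2 gave -0.324 and -0.204. Replicate 3 thus stood apart from 1 and 2 in both conditions at 24 h, and the number as the link is not shown. Alternatives were the offset, filter, choice of probe set, quantile normalization, the variance model, only the arrays compared, the replicate number as a block and leaving out each array. The precision is limited by 3 arrays per group.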

Additional observations from a re-analysis of the deposited data

Results flagged for a closer look

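The apelin pathway lists held 7 measured enzymes, 17 transducers, 11 related receptors and 2 ligands. Of these, 3 genes had an adjusted p under 0.05 for the change of the induction difference between 24 and 48 h. The test was of the change itself (limma, adjusted over all genes, 3.11% of all genes called). For Pcsk5 the induction difference grew by 1.60 (0.55 to 2.15, adjusted p = 1.23e-04). For Rgs5 it grew by 1.04 (0.30 to 1.34, adjusted p = 0.00665). For Arrb1 it was 0.25 at 24 h and -0.28 at 48 h, neither of them called (limma, adjusted p = 0.201 and 0.0662). The change was -0.53 (limma, adjusted p = 0.0376). That call was lost in 9 of 18 fits without 1 array, up to 0.106 without induced 48 h replicate 3. No group held over 3 arrays, so single arrays were not tested for standing apart.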

How the results depend on the processing

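The 9 differences of Aplnr kept their direction under 11 other settings and when each array was left out, with 1 exception: the uninduced change from 12 to 24 h ranged from -0.01 to 0.35 without 1 array. The 24 h difference ranged from 2.46 to 2.88 without 1 array. With probe sets averaged, Aplnr differed by 1.72 at 24 h, rose by 2.91 from 24 to 48 h in uninduced and by 1.61 from 12 to 24 h in induced cultures, and its difference changed by 1.43 and then -0.999. With an offset of 64 the uninduced rise was 3.63. No call of Apln changed in any setting. With the arrays compared alone, 241 genes were called at 24 h between induced and uninduced cultures (558 in the fit of all arrays) and 172 in the uninduced change from 12 to 24 h (574). For the change of the induction difference from 12 to 24 h, 15 genes were called, 9 with probe sets averaged and 24 with the replicate number as a block. That block changed no other call or count reported by over 1.5 times; it could not be fitted for changes over time. Without 1 array the counts were 74 (without induced 12 h replicate 2) to 190 for induction at 12 h, 306 (induced 24 h replicate 2) to 588 at 24 h, 189 (uninduced 12 h replicate 2) to 906 (uninduced 24 h replicate 3) for the uninduced and 1127 (induced 24 h replicate 2) to 2279 for the induced change from 12 to 24 h, and 9 (induced 24 h replicate 2) to 26 (induced 24 h replicate 1) for the change of the difference. Of 40 calls of pathway genes, 29 were kept whichever array was left out. Settings for the induced courses and for the changes of the difference were in part added after seeing the data. Dim probe sets, such as those of Pcsk5 and Rgs5 in uninduced cultures, are compressed by the offset.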
